A study of Mus musculus with 6 samples.

Results

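The genes described here encode the Sm, LSm and SF3 proteins, many of them structural proteins of the spliceosome. The rule goes by name: every mouse gene whose symbol starts with Snrp, with Lsm and a number, or with Sf3a or Sf3b and a number, without pseudogenes. That gave 34 of the 22969 genes in the count table, 12 in the Sm group (Snrp genes), 13 in the LSm group and 9 in the SF3 group. The cells were hematopoietic stem cells, which rebuild all blood lineages, sorted from C57BL/6 bone marrow as LSK cells (lineage-negative, with surface Sca-1 and Kit) that are CD150+ and CD48-. About 500 cells went into each library. The 3 libraries labelled Rbfox2-deleted came from Vav1-cre; Rbfox2-fl/fl mice, in which the Cre recombinase is driven from Vav1 regulatory sequence, active across blood cells and not in stem cells alone, and the 3 control libraries came from Rbfox2-fl/fl mice without Cre. The labels call the mice adult and give no age or sex. Rbfox2 is an RNA-binding regulator of alternative splicing, and the study asked how it acts on stem cell self-renewal and protein homeostasis.

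Seven-membered rings of Sm proteins hold the RNA of the U1, U2, U4 and U5 small nuclear ribonucleoproteins (snRNPs), the particles that recognise splice sites. Related LSm rings hold U6 RNA in the nucleus when they contain LSm8, and start decay of messenger RNA in the cytoplasm when they contain LSm1 instead. SF3a and SF3b are the protein blocks of the U2 snRNP that clamp the branch site of the intron, and in human blood disease SF3B1 is among the most often mutated splicing genes. Splicing regulators such as Rbfox2 act on top of this general machinery.

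To show the regulatory sequence behind genes on each side of the comparison, the 250 bases before the RefSeq transcription start (build GRCm38.p6, the same coordinates as mm10) are printed for the gene with the smallest p in the Sm ring, in the LSm group, and among the higher and the lower SF3 genes. Capitals mark matches, on either strand, to 8 promoter motifs of textbook transcription factors. The CCAAT box was searched by those letters and the GC box, read by factors of the Sp family, as GGGCGG. For the ETS family of factors, which has many members in blood cells, the letters searched were CCGGAAG. The E box was searched as CACGTG, and the TATA box, known from promoters with a sharp start, as TATAAA. The YY1 motif was searched as AAGATGGC, the cyclic AMP response element as TGACGTCA, and the NRF1 motif is given by its name. GENCODE places a start inside each of these 4 windows, and bases after it can be transcribed. For Snrpg that start is near the beginning of the window, so all its matches lie after it, as does the GC box of Lsm3 closest to the RefSeq start.
Snrpg (chr6:86371290-86371539, plus strand): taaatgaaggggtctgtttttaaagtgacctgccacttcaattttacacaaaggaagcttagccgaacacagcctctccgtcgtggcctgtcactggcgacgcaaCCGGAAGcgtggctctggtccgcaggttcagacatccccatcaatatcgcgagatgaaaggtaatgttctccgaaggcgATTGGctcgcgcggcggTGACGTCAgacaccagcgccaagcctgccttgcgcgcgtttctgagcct
Lsm3 (chr6:91515785-91516034, plus strand): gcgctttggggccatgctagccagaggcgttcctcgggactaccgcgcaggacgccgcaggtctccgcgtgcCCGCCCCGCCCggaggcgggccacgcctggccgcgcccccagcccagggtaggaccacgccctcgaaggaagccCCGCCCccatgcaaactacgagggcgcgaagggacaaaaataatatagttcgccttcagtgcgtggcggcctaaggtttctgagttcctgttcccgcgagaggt
Sf3a3 (chr4:124714611-124714860, plus strand): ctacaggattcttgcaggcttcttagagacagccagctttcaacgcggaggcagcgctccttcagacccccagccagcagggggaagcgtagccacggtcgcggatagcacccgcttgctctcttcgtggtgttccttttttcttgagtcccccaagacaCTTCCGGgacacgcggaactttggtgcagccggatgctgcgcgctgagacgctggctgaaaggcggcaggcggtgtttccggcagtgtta
Sf3b6 (chr12:4817358-4817607, plus strand): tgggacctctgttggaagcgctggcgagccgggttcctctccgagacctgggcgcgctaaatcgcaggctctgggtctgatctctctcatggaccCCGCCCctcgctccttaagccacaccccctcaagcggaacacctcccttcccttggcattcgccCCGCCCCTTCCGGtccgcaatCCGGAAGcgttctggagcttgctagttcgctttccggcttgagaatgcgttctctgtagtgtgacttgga

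The Snrpg window held an ETS motif 145 bases before the start, a CCAAT box at 66 and a cyclic AMP response element at 49. The Lsm3 window held GC boxes alone, at 178, 173 and 104 bases, of which the first 2 share a base. The Sf3a3 window held 1 ETS motif at 90 bases, and the Sf3b6 window 2 at 85 and 70 beside GC boxes at 155 and 91. RefSeq windows were found for 27 of the 34 genes, and for those with several the first listed was read. The ETS motif stood in 6 of 7 SF3 windows, 3 of 10 Sm windows and 1 of 10 LSm windows, against 6.91% of all 32851 windows. The GC box stood in 15 of the 27 (55.6%) against 32.7% of all windows, the NRF1 motif in 5 against 3.74%, and the CCAAT box in 10 (37.0%) against 33.8%. The TATA box stood in 2 of the 27 against 12.4%, the E box in 1 against 6.02% and the cyclic AMP response element in 2 against 1.55%. The YY1 letters were in none of the 27 windows, against 1.56% of all. These are matches of letters, with no binding measured.

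Depth was 23474895 to 35650284 counts in libraries labelled Rbfox2-deleted and 47895459 to 55151484 in controls. Controls 1 and 3 differed from each other far less than any other pair (chi-square per degree of freedom 3.44, against 156 to 808). Their counts were summed, which left 3 samples labelled Rbfox2-deleted and 2 control samples. The label of the deletion did not show in every library: Rbfox2 had 2, 87 and 10 counts in libraries labelled Rbfox2-deleted 1, 2 and 3, and 238, 11 and 250 in controls 1, 2 and 3 (log2 fold change -1.49, SE 2.0, edgeR adjusted p = 0.923). A count over the whole gene includes exons outside a deletion, and control 2 and Rbfox2-deleted 2 went against their labels in this count. The groups are taken from the labels, and each direction below rests on them. Rbfox2-deleted 1 stood apart on the first principal component (65% of the variance), at -318.7 against 72.09 to 88.26 for the other samples. Xist and the Y-linked Eif2s3y marked Rbfox2-deleted 1 and 3 as female and the other libraries as male. All 8 genes listed for the sort gate (among them Ly6a, Kit, Slamf1 and Procr) were tested, with summed levels of 1538 to 1715 CPM (counts scaled to a common library size) in libraries labelled Rbfox2-deleted and 1812 to 1842 CPM in controls. Cd48 had at most 3 counts in any library. Granulocyte and monocyte markers summed to 1639 to 2012 CPM in libraries labelled Rbfox2-deleted and 2106 to 2878 CPM in controls, mostly Lyz2 and Prtn3. Erythroid markers summed to 119 to 558 CPM and 120 to 182 CPM, megakaryocyte markers to 52.3 to 238 CPM and 301 to 317 CPM, B cell markers to 129 to 212 CPM and 229 to 322 CPM, and T and NK cell markers to 80.2 to 135 CPM and 113 to 135 CPM, each with libraries labelled Rbfox2-deleted first. Mpo and Cd3e had at most 28 counts in any library, Car1 had 0 in all, and Elane had 1, 0 and 0 counts in libraries labelled Rbfox2-deleted against 132, 64 and 165 in controls 1, 2 and 3. The part of other cells in the values below was not tested, and in bulk RNA fewer cells of a type and less RNA per cell cannot be told apart.

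Taken as groups, Sm and LSm genes had lower levels in libraries labelled Rbfox2-deleted than in controls, and SF3 genes were split. The sizes of these differences, and the sign of the LSm median, depend on the adjustment for transcript length and GC content. The LSm median was 0.20 with a length offset and 0.10 with a GC offset, and the Sm median -0.15 and -0.23. The median of all genes was then 0.45 and 0.46. Relative to it the LSm median was -0.25 and -0.36, and the Sm median -0.60 and -0.69. No single gene of the 34 passed the test across all genes, where edgeR called 0 of 12350 genes (0% of those tested) at an adjusted p of 0.05. Of the 34, 33 passed the filter on low counts, and Snrpn did not. In the Sm group 11 of 11 tested genes lay below control, with a median log2 fold change of -0.73 (60.4% of control). In the LSm group 10 of 13 lay below, with a median of -0.39, and in the SF3 group 3 of 9 lay below, with a median of 0.53. Over all genes tested 46.5% lay below control, 53.5% lay above, and the median was 0.11. At an unadjusted p under 0.05, edgeR had 8 of the 33 genes (9.89% of all genes), of which 6 were lower (4.56% of all genes) and 2 higher (5.33%). DESeq2 called none of the 33 (1.47% of all genes), with 2 at an unadjusted p under 0.05 where all genes had 1479 of 12350. limma-voom called none, with 11 where all genes had 1686 of 12350. All libraries labelled Rbfox2-deleted lay below both control samples for 15 of the 33 genes, against 17.2% of all genes, and above both for 3 genes, against 14.9%.

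Single samples gave the Sm and LSm groups the same direction. The median Sm gene lay at -0.53, -0.84 and -0.73 (log2 CPM minus the control mean) in libraries labelled Rbfox2-deleted 1, 2 and 3, and the median LSm gene at -0.41, -0.60 and -0.63. The median SF3 gene lay at 0.00, 0.12 and 0.50. The median of all genes was -0.52 in Rbfox2-deleted 1, so the Sm and LSm groups lay close to all genes there, and 0.00 and 0.08 in the other 2. Control 2 minus controls 1 and 3 gave medians of 0.17 for Sm, 0.24 for LSm and 0.02 for SF3 genes. Its median size regardless of sign was 0.17, 0.30 and 0.34, and 0.54 over all genes. The median SF3 log2 fold change of 0.53 was 0.03 without control 2 and 0.06 without Rbfox2-deleted 3. Summed over the group, Sm genes took 3423, 2563 and 2502 CPM in libraries labelled Rbfox2-deleted, against 4029 CPM in controls 1 and 3 and 4497 CPM in control 2. SF3 genes took 1420, 1403 and 1289 CPM against 1404 and 1545 CPM. The ratio of summed SF3 to summed Sm CPM was 0.415, 0.547 and 0.515 in libraries labelled Rbfox2-deleted, against 0.348 and 0.344 in controls. The summed Sm CPM was itself separated and lower while that of SF3 overlapped, so this ratio restates the Sm difference and adds no further evidence. The groups did not overlap for LSm over Sm either (0.661, 0.628 and 0.639 against 0.594 and 0.595). The same held for SF3 over LSm (0.628, 0.872 and 0.806 against 0.587 and 0.577).

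**Figure D1:**
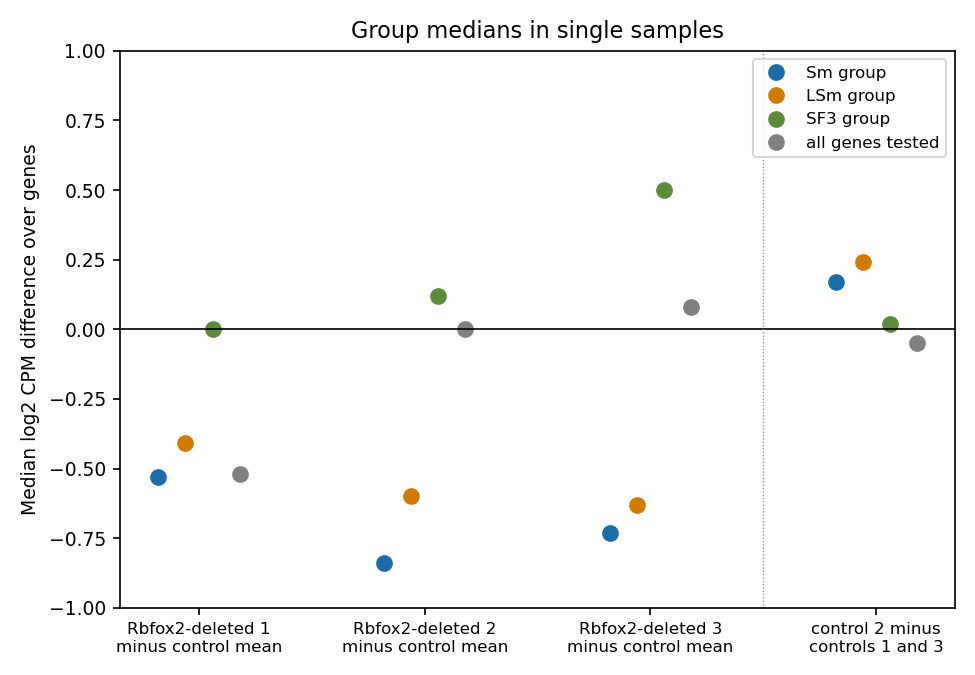
Median difference of log2 CPM over the tested genes of each group and over all genes, for each library labelled Rbfox2-deleted minus the mean of the 2 control samples (left of the dotted line) and for control 2 minus controls 1 and 3 (right). Sm and LSm medians are negative in all 3 libraries, from -0.41 to -0.84, while the SF3 medians run from 0.00 to 0.50.

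The Sm ring is built of SmB/B' (Snrpb), SmD1, SmD2, SmD3, SmE, SmF and SmG, and 6 of these 7 genes had all libraries labelled Rbfox2-deleted below both controls, against 17.2% of all genes. Snrpg, which encodes SmG, had 214, 104 and 138 CPM in Rbfox2-deleted 1, 2 and 3, against 312 CPM in controls 1 and 3 and 313 CPM in control 2. The controls were nearly equal while the libraries labelled Rbfox2-deleted were spread widely, with a fitted difference of -1.04 on the log2 scale (SE 0.36, edgeR adjusted p = 0.441). Snrpd2 (SmD2) had 258, 421 and 289 CPM, against 494 and 687 CPM in controls, a log2 fold change of -0.87 (SE 0.31, edgeR adjusted p = 0.453). SmD2 pairs with SmD1 on the ring, and Snrpd1 had 151, 122 and 123 CPM, against 198 and 240 CPM (log2 -0.73, SE 0.28, edgeR adjusted p = 0.485). Snrpd3 (SmD3), the partner of SmB, had 297, 189 and 250 CPM, against 380 and 453 CPM (log2 -0.76, SE 0.28, edgeR adjusted p = 0.467). The groups were separated for each of these 4 genes, with the highest library labelled Rbfox2-deleted still below the lower control. With the length offset Snrpg, Snrpd2, Snrpd1 and Snrpd3 had log2 fold changes of -0.27, -0.55, 0.16 and -0.35, where the median of all genes was 0.45.

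Snrpe (SmE) and Snrpf (SmF) were also separated. Snrpe had 327, 176 and 181 CPM in libraries labelled Rbfox2-deleted, against 335 and 368 CPM in controls, so that Rbfox2-deleted 1 came close to controls 1 and 3. Snrpf had 47.2, 33.5 and 33.5 CPM, against 58.7 and 61.3 CPM. Snrpb, the most abundant of the 34 genes also per kilobase of transcript, was the exception: it had 1914 CPM in Rbfox2-deleted 1, above both controls, and 1069 and 1005 CPM in Rbfox2-deleted 2 and 3, against 1632 and 1701 CPM in controls. Its neuronal counterpart Snrpn (SmN), an imprinted gene, had 2 counts in control 1 and 0 in the other 5 libraries. Exons of Snrpn overlap those of Snurf, which had 0 counts in all 6, so reads shared by the 2 genes may not have been counted and the level of Snrpn cannot be read from these counts.

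U1 and U2 carry proteins of their own beside the ring. Snrpa1 (the A' protein of U2) had 58.1, 151 and 174 CPM in libraries labelled Rbfox2-deleted, against 254 and 289 CPM in controls, the largest negative fold change among the 33 genes (log2 -1.09, SE 0.48, edgeR adjusted p = 0.539). Snrpb2 (the B'' protein of U2), its partner on the stem-loop of U2 RNA, had 34.8, 51.5 and 96.6 CPM, against 103 and 139 CPM (log2 -0.99, SE 0.52, edgeR adjusted p = 0.642). Both genes were separated between the groups and were lowest in Rbfox2-deleted 1. The U1 proteins overlapped: Snrpa (the A protein of U1) had 62.2, 204 and 169 CPM against 208 and 185 CPM (log2 -0.44, SE 0.51, edgeR adjusted p = 0.904), and Snrpc (the C protein of U1) had 58.5, 42.2 and 42.6 CPM against 54.9 and 61.9 CPM (log2 -0.29, SE 0.48, edgeR adjusted p = 0.946).

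**Figure D2:**
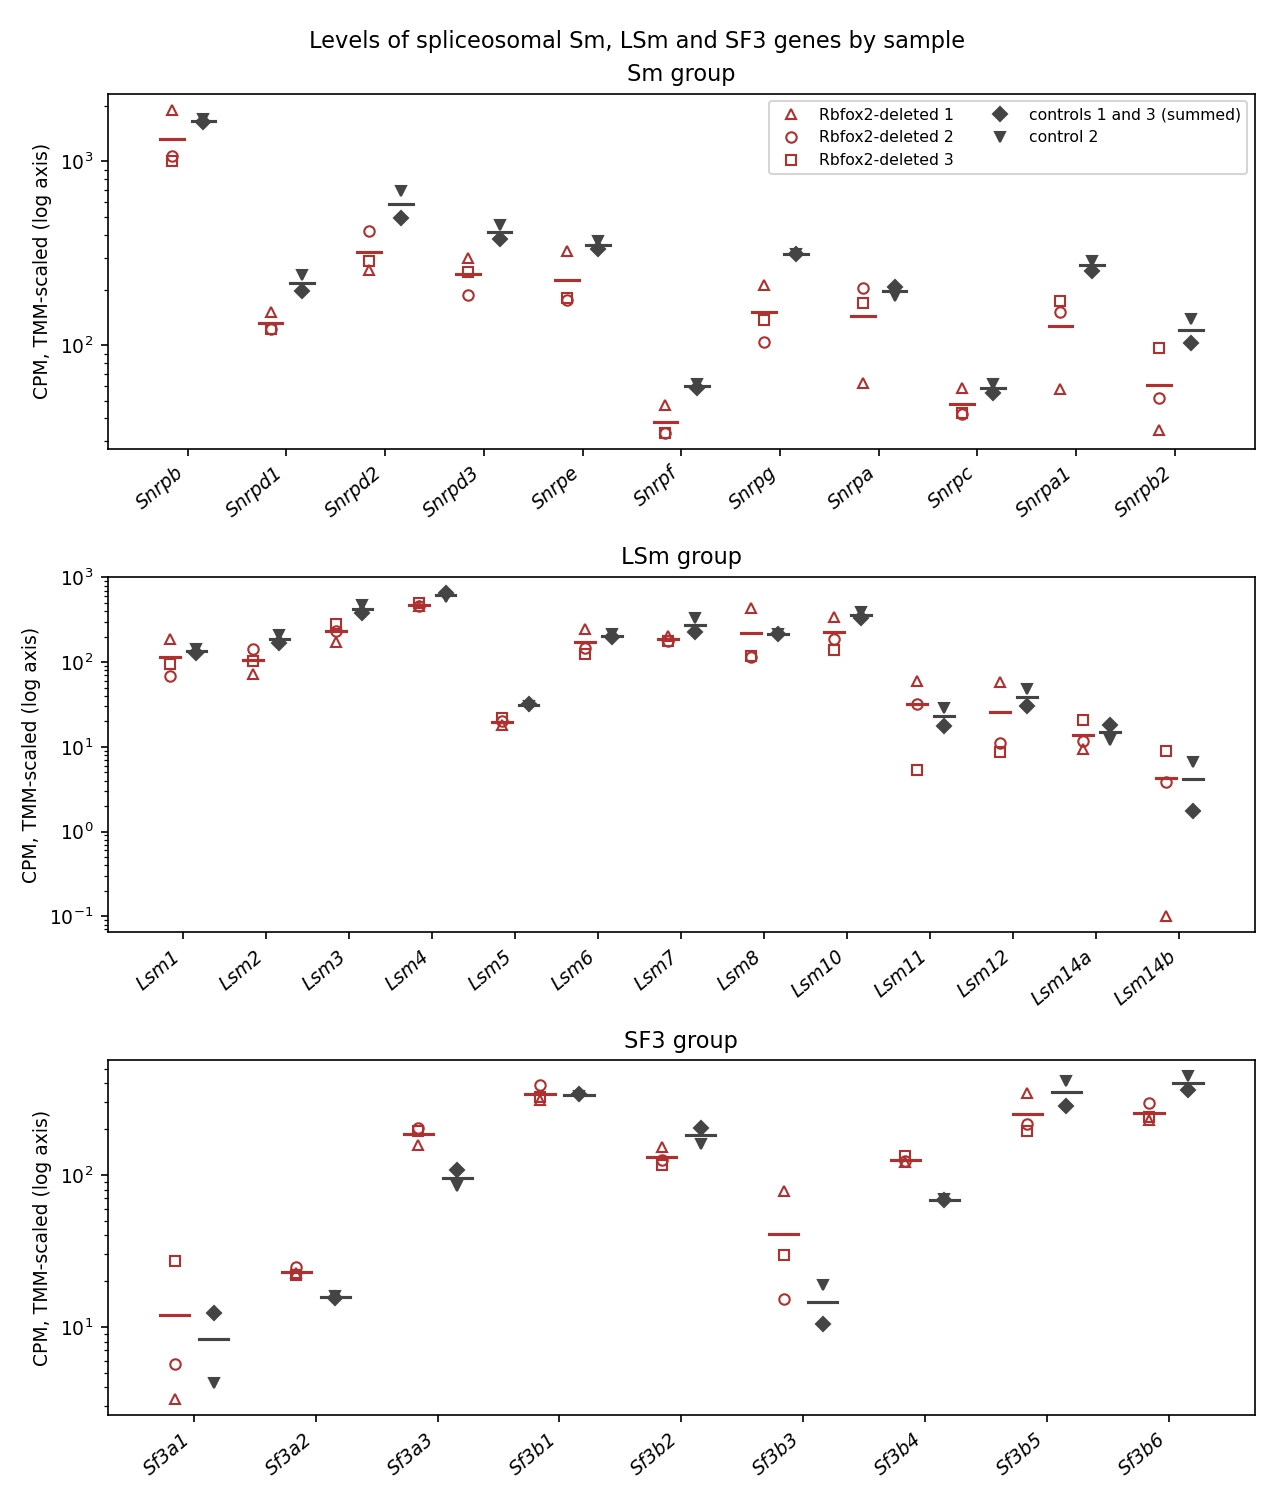
TMM-scaled CPM (log axis) of the 33 tested genes in the 3 libraries labelled Rbfox2-deleted (open red symbols, left) and the 2 control samples (filled grey symbols, right), with group means as short lines. All Sm ring genes except Snrpb have every red symbol below every grey one, as do Snrpa1 and Snrpb2. The same holds for Lsm2, Lsm3, Lsm4, Lsm5, Lsm7, Sf3b2 and Sf3b6, while Sf3a2, Sf3a3 and Sf3b4 have every red symbol above. Over all genes 17.2% were separated and lower, and 14.9% separated and higher.

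LSm2 to LSm7 are shared by the nuclear and the cytoplasmic ring, and 5 of these 6 genes were separated and lower, against 17.2% of all genes. With the length offset Lsm2, Lsm3, Lsm4 and Lsm7 had log2 fold changes of 0.01, 0.06, 0.40 and 0.65. The median of all genes was then 0.45, so that Lsm2, Lsm3 and Lsm4 lay below it and Lsm7 above it. Lsm3 had 175, 234 and 281 CPM in libraries labelled Rbfox2-deleted, against 379 and 472 CPM in controls (log2 -0.89, SE 0.29, edgeR adjusted p = 0.415). Lsm2 had 71.7, 144 and 102 CPM, against 167 and 207 CPM (log2 -0.82, SE 0.39, edgeR adjusted p = 0.578). Lsm7 had 201, 178 and 176 CPM, against 224 and 328 CPM (log2 -0.58, SE 0.29, edgeR adjusted p = 0.603). Lsm4, the most abundant LSm gene per kilobase of transcript, was also the most even LSm gene across the libraries labelled Rbfox2-deleted, with 465, 460 and 494 CPM against 655 and 587 CPM (log2 -0.39, SE 0.22, edgeR adjusted p = 0.662). Lsm5 had 17.9, 20 and 21.9 CPM against 31.9 and 30.7 CPM. Lsm6 overlapped, with 243, 145 and 126 CPM against 198 and 214 CPM.

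The 2 genes that decide which ring forms did not separate the groups. Lsm8, of the nuclear ring, had 432 CPM in Rbfox2-deleted 1 but 115 and 118 CPM in Rbfox2-deleted 2 and 3, against 212 and 215 CPM in controls. Lsm1, of the cytoplasmic ring, followed the same order with 185, 67.8 and 95.6 CPM, against 129 and 143 CPM. The ratio of Lsm8 to Lsm1 CPM was 2.34, 1.69 and 1.23 in libraries labelled Rbfox2-deleted and 1.64 and 1.5 in controls, so both groups covered the same values. Lsm10 and Lsm11 replace 2 Sm proteins in the U7 snRNP, which cuts histone messenger RNA. Lsm10 had 344, 187 and 140 CPM against 328 and 386 CPM, and Lsm11 had 59.2, 32.0 and 5.30 CPM against 17.4 and 28.6 CPM, both overlapping. The remaining LSm genes were low and variable: Lsm12 had 58.5, 11.1 and 8.70 CPM against 30.1 and 48.0 CPM, and Lsm14a, a component of cytoplasmic RNA granules, had 9.36, 11.7 and 20.7 CPM against 17.9 and 12 CPM. Lsm14b had 0.101, 3.87 and 9 CPM against 1.75 and 6.65 CPM, with 2 counts in Rbfox2-deleted 1.

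The SF3 genes lay on both sides of control. Sf3a3, the subunit that joins SF3a to the U2 core, had 157, 203 and 196 CPM in libraries labelled Rbfox2-deleted, against 107 and 84.6 CPM in controls (log2 0.95, SE 0.32, edgeR adjusted p = 0.419). Sf3b4, which contacts the RNA upstream of the branch site, had 122, 123 and 134 CPM against 68.2 and 69.1 CPM (log2 0.88, SE 0.33, edgeR adjusted p = 0.468). Sf3b6, the small subunit known as p14 that lies near the branch point adenosine, was on the lower side with 231, 297 and 241 CPM against 363 and 446 CPM (log2 -0.66, SE 0.26, edgeR adjusted p = 0.482). Each of these 3 was separated between the groups. The ratio of Sf3a3 to Sf3b6 CPM was 0.680, 0.685 and 0.816 in libraries labelled Rbfox2-deleted, against 0.295 and 0.190 in controls, and that of Sf3b4 to Sf3b6 was 0.531, 0.415 and 0.555 against 0.188 and 0.155. Because these genes were separated in opposite directions, their ratios had to separate too and add no further evidence. With the length offset Sf3a3, Sf3b4 and Sf3b6 had log2 fold changes of 0.96, 0.88 and -0.07, where the median of all genes was 0.45.

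Sf3b3 had the largest positive fold change, and was highest in Rbfox2-deleted 1, with 78.0 CPM there, 15.3 and 29.7 CPM in Rbfox2-deleted 2 and 3, and 10.5 and 18.8 CPM in controls (log2 1.49, SE 0.93, edgeR adjusted p = 0.720). Sf3a2 was separated and higher, with 22.5, 24.8 and 22.1 CPM against 15.4 and 15.9 CPM, and Sf3b2 was separated and lower, with 152, 126 and 117 CPM against 204 and 160 CPM. Sf3b5 overlapped, with 344, 217 and 195 CPM against 283 and 417 CPM. Sf3a1 had the widest relative range of the SF3 genes, with 3.34, 5.74 and 27.1 CPM against 12.4 and 4.30 CPM. Sf3b1, the large scaffold that encloses the branch site, had 311, 391 and 327 CPM against 339 and 329 CPM, a log2 fold change of 0.04 with an SE of 0.24.

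**Figure D3:**
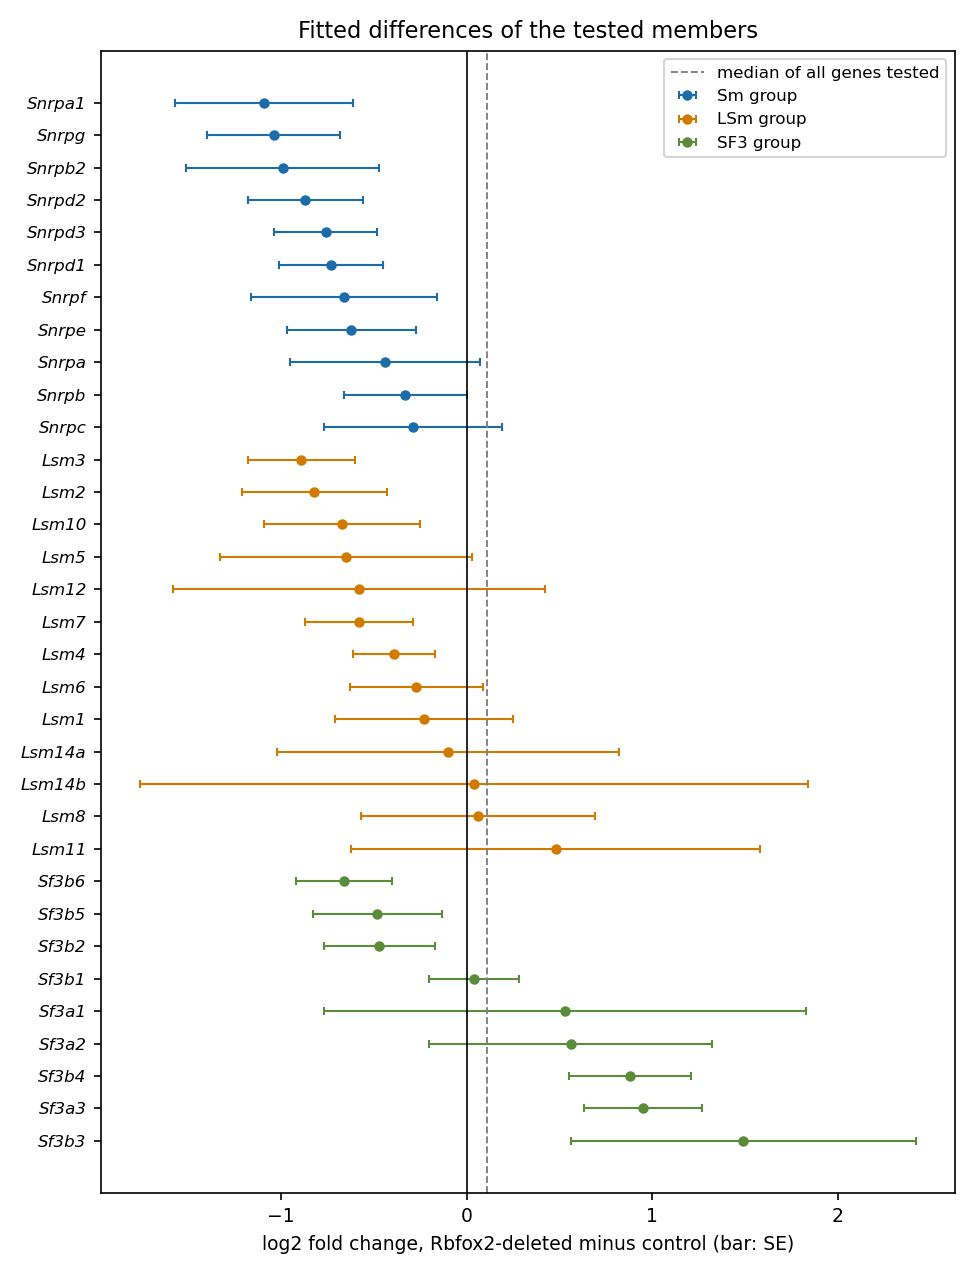
Log2 fold change (libraries labelled Rbfox2-deleted minus control, edgeR) of each tested gene with its SE, ordered within the Sm, LSm and SF3 groups; the dashed line is the median of all genes, 0.11. All 11 Sm genes lie left of 0, while the SF3 genes run from -0.66 to 1.49, and no gene passed the threshold.

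Positions are those of GENCODE on mm10, and all 34 genes are protein coding with counts over their exons. Snrpg (ENSMUSG00000057278) lies at chr6:86371304-86379328, Snrpd2 (ENSMUSG00000040824) at chr7:19149722-19153542, Snrpd3 (ENSMUSG00000020180) at chr10:75517551-75537381 and Snrpa1 (ENSMUSG00000030512) at chr7:66059003-66074587. Lsm3 (ENSMUSG00000034192) lies at chr6:91515928-91522625, Sf3a3 (ENSMUSG00000028902) at chr4:124714776-124732460, Sf3b4 (ENSMUSG00000068856) at chr3:96172332-96177564 and Sf3b6 (ENSMUSG00000037361) at chr12:4817544-4827659. Exons of 11 of the 34 genes overlap exons of another gene, among them Snrpd3, Snrpa, Snrpa1, Snrpf, Lsm3, Sf3a2, Sf3b2, Sf3b3 and Sf3b4. Smart-seq2 keeps no strand, so reads from such overlaps cannot be assigned with certainty. Processed pseudogenes of several Snrp genes exist, which makes their counts uncertain in the same way.

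Per kilobase of transcript, the ring genes were far from equal in level although each ring holds 1 copy of each protein. In libraries labelled Rbfox2-deleted, Snrpb had 1145 ± 437 CPM per kilobase and Snrpe 453 ± 171, followed by Snrpd2 with 227 ± 61.1, Snrpd1 with 154 ± 19.0, Snrpg with 144 ± 53.7, Snrpd3 with 80.7 ± 17.8 and Snrpf with 44.2 ± 9.18 (SD, n = 3). In controls the levels were 1435 ± 42.4 for Snrpb, 699 ± 47.7 for Snrpe, 416 ± 96.3 for Snrpd2, 296 ± 0.668 for Snrpg, 255 ± 34.2 for Snrpd1, 137 ± 17 for Snrpd3 and 69.7 ± 2.15 for Snrpf (SD, n = 2). The order of Snrpd1 and Snrpg was not the same in the 2 groups, and in libraries labelled Rbfox2-deleted they differed by less than their spread. Among LSm ring genes Lsm4 led, with 512 ± 19.9 CPM per kilobase in libraries labelled Rbfox2-deleted and 671 ± 52.4 in controls. Lsm6, Lsm1 and Lsm5 were lowest, between 40.3 and 45.2 in libraries labelled Rbfox2-deleted, where they did not differ beyond their spread, and between 51.2 and 63.4 in controls. In SF3 the order in libraries labelled Rbfox2-deleted was Sf3b6 (217 ± 30.1), Sf3a3 (102 ± 13.8), Sf3b4 (66.0 ± 3.30), Sf3b5 (65.6 ± 20.9), Sf3b1 (55.3 ± 6.83), Sf3b2 (40.9 ± 5.67), Sf3a2 (10.4 ± 0.668), Sf3b3 (9.06 ± 7.26) and Sf3a1 (2.45 ± 2.65). In controls Sf3b6 (343 ± 49.2) and Sf3b5 (91.2 ± 24.7) came first, Sf3a3 (52.7 ± 8.79) was level with Sf3b1 (53.9 ± 1.10) and Sf3b2 (56.5 ± 9.73), and Sf3a1 (1.70 ± 1.17) was again last. The lengths are those of 1 annotated transcript per gene, which need not be the form these cells make.

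Each LSm protein has an Sm counterpart at the same place of its ring, and the ratio of their levels per kilobase was compared. Lsm3 stood at 1.30, 1.06 and 1.86 times Snrpd2 in libraries labelled Rbfox2-deleted, against 1.47 and 1.31 times in controls. Lsm7 stood at 2.12, 3.88 and 2.87 times Snrpg, against 1.62 and 2.36 times, and Lsm6 at 1.17, 0.981 and 0.857 times Snrpf, against 0.765 and 0.794 times. Of the 7 pairs, the groups did not overlap for Lsm6 with Snrpf alone. The log2 fold changes of counterparts were close for Lsm3 and Snrpd2 (-0.89 and -0.87), Lsm2 and Snrpd1 (-0.82 and -0.73), and Lsm5 and Snrpe (-0.65 and -0.62). They were farther apart for Lsm4 and Snrpd3 (-0.39 and -0.76) and for Lsm6 and Snrpf (-0.27 and -0.66). The same held for Lsm7 and Snrpg (-0.58 and -1.04) and for Lsm8 and Snrpb (0.06 and -0.33). Close fitted values did not mean an even ratio, since Lsm2 stood at 0.485, 1.20 and 0.846 times Snrpd1 in libraries labelled Rbfox2-deleted.

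Transcript length moved with these differences across the whole table, and its part in them was examined with an offset. The 20th of all genes with the shortest transcripts (median 652 bases, 617 genes) had a median log2 fold change of -0.62, the 20th around 2064 bases had 0.70, and the 20th around 9114 bases had -0.09. Median transcript length was 1161 bases for tested Sm genes, 943 for LSm genes and 3222 for SF3 genes, against 2808 for all genes. Of the 17 genes described here with transcripts under 1500 bases, 16 lay below control, as did 70.9% of all genes that short, and of the 16 longer ones 8 did, against 41.2%. Set against the 20th of all genes closest in length, the median Sm gene lay 0.14 lower (log2 -0.14), the median LSm gene 0.20 lower (-0.20) and the median SF3 gene 0.16 higher. Snrpe (-0.00), Snrpb (-0.01), Lsm5 (-0.03), Snrpf (-0.07) and Lsm10 (-0.08) were at the median of genes of their length. Farthest below it were Snrpb2 (-1.69), Lsm12 (-1.25), Snrpd3 (-1.03) and Snrpd2 (-0.97), and farthest above it were Sf3b3 (1.41), Lsm8 (0.68) and Lsm11 (0.60). With an offset that removes the trend of each sample with length, 6 of 11 Sm genes and 2 of 13 LSm genes lay below control. Their medians were -0.15 and 0.20, where that of all genes was 0.45. Relative to all genes the Sm and LSm medians were therefore still lower, at -0.60 and -0.25.

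**Figure D4:**
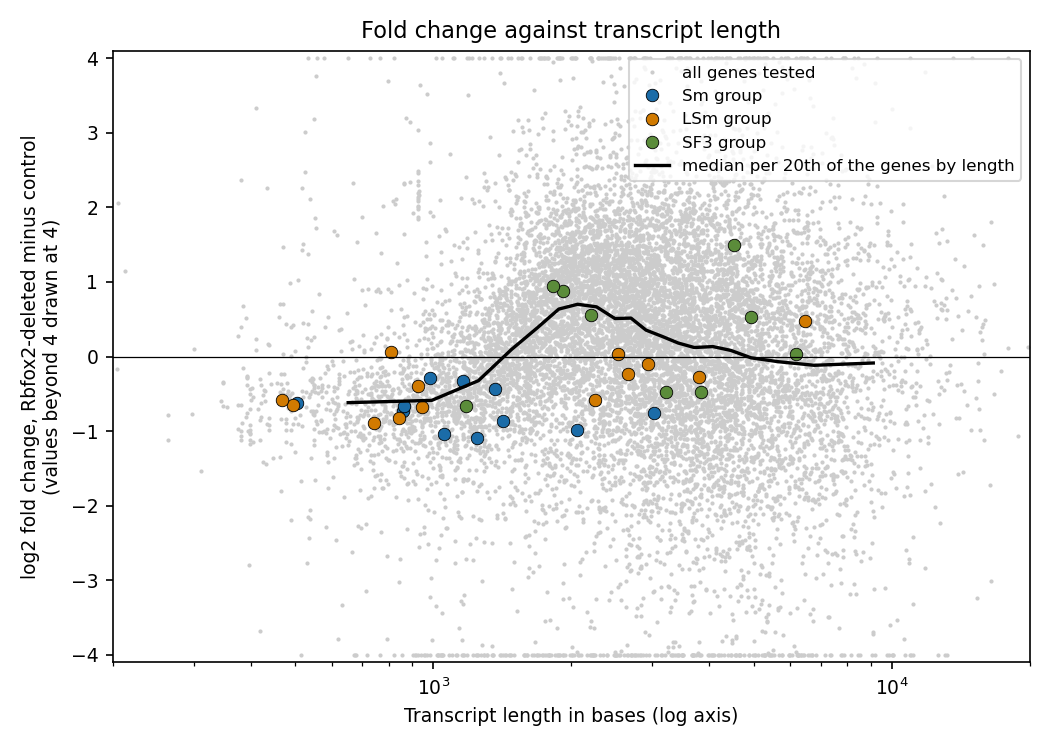
Log2 fold change (libraries labelled Rbfox2-deleted minus control) against transcript length (log axis) for all genes tested (grey, values beyond 4 drawn at 4) and for Sm, LSm and SF3 genes; the black line joins the medians of 20 sets of genes ordered by length. The line lies near -0.62 for the shortest transcripts and peaks at 0.70 near 2064 bases, and most short Sm and LSm genes lie close to it.

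The partners of these proteins were read from lists written from textbook knowledge, and no gene of them passed the edgeR threshold. Of 19 further U1 and U2 factors, 9 lay below and 10 above control (median log2 0.04). Puf60, which helps U2 bind near the 3' splice site, had 505, 551 and 433 CPM in libraries labelled Rbfox2-deleted, against 231 and 215 CPM in controls (log2 1.15, SE 0.25, edgeR adjusted p = 0.387). Ddx46, the helicase that remodels U2 with SF3B1, had 88.4, 45.0 and 65.2 CPM against 176 and 168 CPM (log2 -1.37, SE 0.40, edgeR adjusted p = 0.387). Of 18 tri-snRNP genes 7 lay below control (median 0.21), with Usp39 (2.29, SE 0.81) and Prpf38a (1.47, SE 0.61) having the smallest p. Usp39 and Prpf38a were highest in Rbfox2-deleted 1, and without that library their log2 fold changes were 1.30 and 0.71. Of 22 genes of the Prp19 complex and the catalytic steps 14 lay below (median -0.21), with Ctnnbl1 at 0.96 (SE 0.32) and Bud31 at -1.16 (SE 0.40). Of 12 minor spliceosome genes 5 lay below (median 0.22), with Rbm48 at 1 (SE 0.95) and Zcrb1 at -0.28 (SE 0.29).

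Sm proteins are methylated by PRMT5 with its cofactor WDR77 and loaded on RNA by the SMN complex, and 8 of 17 genes of that pathway lay below control (median 0.34). Prmt5 had 80.6, 101 and 83.1 CPM in libraries labelled Rbfox2-deleted, against 29.0 and 28.6 CPM in controls (log2 1.62, SE 0.45, edgeR adjusted p = 0.387). Wdr77 had 264, 125 and 135 CPM, against 45.1 and 52.2 CPM (log2 1.85, SE 0.47, edgeR adjusted p = 0.387). These 2 genes had the smallest p of the 17, and for each of them every library labelled Rbfox2-deleted lay above both controls. Of the 17 genes, 4 were separated and higher, against 14.9% of all genes, and 4 were separated and lower, against 17.2%. In the Sm ring 6 of the 7 tested genes were separated and lower. Of 6 genes of U6 maturation 3 lay below (median 0.00), with the U6 exonuclease Usb1 at 1.44 (SE 0.46) and Sart3 at 1.68 (SE 1.3), the second carried by 234 CPM in Rbfox2-deleted 1 against 14.8 to 30.9 CPM in the other samples. Of 11 partners of the cytoplasmic LSm ring 6 lay below (median -0.12), with the cap-binding protein Eif4e at 1.21 (SE 0.34) and the decapping cofactor Dcp1a at -3.09 (SE 1.8). Dcp1a had few counts, 1, 1 and 24 in Rbfox2-deleted 1, 2 and 3 and 102, 86 and 129 in controls 1, 2 and 3. Of 7 genes of histone RNA processing, in which U7 takes part, 1 lay below (median 0.66). Slbp, the stem-loop binding protein, had 275, 324 and 263 CPM against 102 and 94.5 CPM (log2 1.55, SE 0.28, edgeR adjusted p = 0.387), and the nuclease Cpsf3 had 104, 105 and 61.4 CPM against 29.6 and 24.4 CPM (log2 1.74, SE 0.50, edgeR adjusted p = 0.387). DESeq2 called Prmt5 (DESeq2 adjusted p = 0.0395) and Slbp (DESeq2 adjusted p = 0.0318) as higher. That was 1 of the 17 genes of the methylation and SMN pathway and 1 of the 7 of histone RNA processing. None was called in the other partner lists, and over all genes DESeq2 called 1.47%.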

How the data were processed

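RNA of about 500 sorted cells per library was sequenced by Smart-seq2, a full-length method without strand or molecular identifiers, per the labels' protocols. The authors deposited counts of reads per Ensembl gene without normalization. Per the submitters' processing notes, Trimmomatic 0.39, featureCounts and DESeq2 1.36.0 were used on build mm10. Not given in the sources used here: aligner, annotation, strand setting and handling of multiply matching reads. Rows sharing an identifier (60 identifiers) were summed, and 22831 of 22969 identifiers had a symbol.

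The quasi-likelihood test of edgeR 4.0.16 (R 4.3.3; glmQLFit and glmQLFTest, two-sided, TMM factors) was run on genes kept by filterByExpr at a minimum count of 10 and total of 15. Controls 1 and 3 were summed as 1 sample, with Benjamini-Hochberg adjustment across 12350 genes and a threshold of 0.05. The p-values measure the spread between 5 samples. CPM are scaled by TMM factors over tested genes; the SE of a log2 fold change is its size over the root of the F statistic; log2 CPM used a prior count of 2. Lengths are those of the longest APPRIS principal transcript (GENCODE, mm10), or else of the longest transcript. The code was tested on simulated counts. Alternatives used DESeq2 1.42.0, limma 3.58.1 and other scalings, filters, samples and covariates.

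The naming rule for the 34 genes, their groups, and the partner and marker lists were chosen with earlier results of these data known. Full statistics were given for Rbfox2 and for up to 4 genes with the smallest p in the Sm ring, the U1 and U2 proteins, the LSm and the SF3 group, and up to 2 per partner list. Counting error alone limits genes with few counts.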

Additional observations from a re-analysis of the deposited data

How the results depend on the processing

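No gene of the 33 was called under any of the 19 alternatives, and the count over all genes was 0 in each except DESeq2, where it was 181 (125 of them higher, 56 lower). With no adjustment, at p under 0.05, edgeR counted 8 of the 33 in the main comparison, 20 without Rbfox2-deleted 1, 0 without control 2, 2 with sex as a covariate and 0 with the length or the GC offset. Over all genes those counts were 1221, 2924, 465, 371, 548 and 677.

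The Sm median of -0.73 was -1.08 with upper quartile factors, -0.91 without a filter and with a stricter one, -0.89 without controls 1 and 3, -0.15 with the length offset, -0.23 with the GC offset and -0.32 with replicate block and GC offset; leaving out single samples gave -0.60 to -0.76. The LSm median of -0.39 was -0.72 with upper quartile factors, -0.55 without a filter, -0.65 with a stricter one, -0.51 by limma-voom, -0.64 without controls 1 and 3 and -0.63 with sex as a covariate. It was 0.20 with the length offset, 0.10 with the GC offset and -0.15 with replicate block and GC offset, and -0.23 to -0.62 without single samples. The SF3 median of 0.53 was 0.23 with upper quartile factors, 0.05 by limma-voom, 0.04 with the replicate block, 0.06 with sex as a covariate and 0.80 with the length offset, and 0.03 to 0.57 without single samples. The lowest came without control 2, where it was -0.13 relative to all genes, and without Rbfox2-deleted 3 it was 0.06, or 0.05 relative to all genes. The median of all genes moved to -0.20 with upper quartile factors, -0.32 by limma-voom, 0.45 with the length offset and 0.46 with the GC offset. Relative to it the Sm median was -0.88, -0.42, -0.60 and -0.69, the LSm median -0.52, -0.19, -0.25 and -0.36, and the SF3 median 0.43, 0.37, 0.35 and 0.17; in the main comparison these were -0.84, -0.50 and 0.42. The cause of these shifts was not tested.

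Of 625 values of named genes under alternatives, 16 changed sign. With the length offset these were Snrpd1 (0.16), Snrpc (0.50), Lsm3 (0.06), Lsm2 (0.01), Lsm7 (0.65), Lsm4 (0.40) and Zcrb1 (0.57). With the GC offset they were Snrpc (0.21), Lsm4 (0.10) and Zcrb1 (0.20), and with replicate block and GC offset Snrpc (0.03) and Zcrb1 (0.10). In these settings the median of all genes was 0.45 (length), 0.46 (GC) and 0.02 (replicate block and GC). With the length offset Snrpd1, Lsm3, Lsm2 and Lsm4 lay below that median, and Snrpc, Lsm7 and Zcrb1 above it. With the GC offset Snrpc, Lsm4 and Zcrb1 lay below it. With sex as a covariate Snrpa was 0.05 and Sart3 -0.42. Sart3 ranged between -0.66 and 2.17 when single samples were left out, with -0.66 without Rbfox2-deleted 1, and Rbfox2 was 1.90 without controls 1 and 3.

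Deviations of same-numbered libraries correlated at -0.0462, 0.00241 and 0.0704, which gave no sign of pairing by replicate number. Rbfox2-deleted 3 correlated at 0.0701 with control 1, nearly the same as with control 3. The check therefore cannot tell these 2 controls apart, and whether the samples are paired stays undecided. With 6 separate libraries and a replicate block 0 genes were called, and the Sm and LSm medians were -0.67 and -0.44. The median of all genes was then -0.27, so that relative to it they were -0.40 and -0.17. Counting error limits genes with few counts, such as Lsm14b with 2 in Rbfox2-deleted 1.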
